A study of Mus musculus with 2 samples.

Results

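The genes described are 8 basic helix-loop-helix (bHLH) transcription factors of the developing retina, *Atoh7*, *Neurog2*, *Olig2*, *Neurod1*, *Neurod4*, *Neurod2*, *Ptf1a* and *Bhlhe22*. They were taken by symbol from the feature tables of the deposited single-cell count matrices, where 8 of 8 were found among 32285 genes. Together they gave 27965 unique molecular identifiers (UMIs, each standing for 1 captured transcript) in the humWT cells kept and 63719 in the humdG cells kept. The rule used the symbols and no measured value, although earlier results of these data were known when the members were chosen.

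The study asked how a human C-terminal frameshift variant of *MYRF*, a membrane-bound transcription factor, acts in the eye. Cells of E17.5 mouse eye cups were counted in 1 pooled library per genotype, *Myrf* humWT/humWT (here humWT, the control) and *Myrf* humdG/humdG (humdG). In both genotypes the last *Myrf* exon of the mouse was exchanged for human sequence on both alleles, as wild-type sequence in humWT and with the variant in humdG. The alleles were engineered into the mouse germ line, so neither group needs a Cre driver, although the protocol text of the labels names conditional *Myrf* mice. The labels give 3 pooled eye cups per library with cornea, lens and optic nerve taken off, whereas the methods of the study leave the cornea on and count a larger number of eyes. Pooling leaves no way to tell embryos apart, so each genotype is 1 sample. No test between genotypes was possible. Every interval below is a 95% interval for counting error only, which does not cover differences between embryos or preparations. The intervals of levels and of their ratios treat each UMI as independent, so they also leave out differences between cells.

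Proneural bHLH factors pair with E proteins and bind short DNA motifs called E-boxes, and they switch on programmes of neuronal differentiation in dividing progenitors. Id proteins sequester the E proteins, and Hes and Hey repressors, driven by Notch signalling, hold proneural genes down in progenitors. In the retina the factors act in sequence and by lineage, with *Atoh7* known for making cells competent to become ganglion cells, *Neurod1* and *Neurod4* for photoreceptor and amacrine development, *Ptf1a* for amacrine and horizontal fates, and *Bhlhe22* (Bhlhb5) for subsets of amacrine and bipolar cells.

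Because bHLH factors bind E-boxes, and proneural genes can regulate each other, the promoters of the members were searched for the motif CANNTG, which reads the same on both strands. RefSeq promoter windows of GRCm38.p6, reaching from 250 bases before to 50 bases after a start, matched 7 of the 8 members. The motif occurred at least 1 time in 72.3% of 32851 such windows of all genes and at least 3 times in 17.6%. *Atoh7* and *Neurod2* each held 3 matches, *Neurod1* held 1, *Neurod4* held 1 at the second of its starts, and none was found in the windows of *Neurog2*, *Olig2* and *Ptf1a*. The stretches with a match in *Atoh7*, *Neurod1* and *Neurod4*, on which the comparisons of genotypes below mostly turn, are shown with the E-box in capitals. The *Atoh7* sequences lie on the plus strand of chr10:63099555-63099584 and chr10:63099711-63099740, the *Neurod1* sequence on the minus strand of chr2:79456857-79456886, and the *Neurod4* sequence on the minus strand of chr10:130280117-130280146.
Atoh7 upstream: accaggccactcCAGATGgtgtgttagtta
Atoh7 near the start: gcccgccCACCTGccacCACCTGttccctc
Neurod1 upstream: gggaagacCATATGgcgcatgccggggagg
Neurod4 at the second start: gacatagaaaacCAGCTGtggtggaggcac
The pair of boxes in the second *Atoh7* stretch were both CACCTG. On the strand of the gene this form was found in 10.4% of all windows, and CAGGTG, its form on the other strand, in 11.2%. The boxes of the second *Atoh7* stretch began 67 and 57 bases before the RefSeq start. That stretch falls inside the *Atoh7* gene as GENCODE M21 draws it, so the annotations place the start differently. A match describes the letters only.

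All 8 members are protein-coding genes of 1 or 2 exons in GENCODE M21 (GRCm38). *Atoh7* lies at chr10:63099651-63101279 on the plus strand, *Neurog2* at chr3:127633135-127635631 (plus), *Olig2* at chr16:91225457-91228677 (plus) and *Neurod4* at chr10:130268152-130280240 (minus). *Neurod2* lies at chr11:98325415-98329648 (minus) and *Bhlhe22* at chr3:18054174-18057517 (plus), and neither overlaps another gene. *Neurod1*, at chr2:79452521-79456751 (minus), overlaps *Cerkl* on the same strand and *Gm26755* on the other, and *Ptf1a*, at chr2:19445663-19447501 (plus), overlaps *Ptf1aos* on the other strand. Counts of *Neurod1* are therefore uncertain where reads could belong to *Cerkl*. Because the libraries read transcripts at their 3′ end, levels are compared between classes and libraries for the same gene and not between genes.

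The humWT library held 17421 barcodes and 129135207 UMIs, and the humdG library 19565 barcodes and 114319529 UMIs. After limits on genes, mitochondrial UMIs and doublet scores, 16167 and 18173 cells remained, with medians of 3785 and 2625 UMIs. Barcodes were shared by the libraries in 102 cases. Clusters were formed without the 8 members and named from markers that include none of them, so the members' levels did not shape the classes directly. The named retinal classes were progenitor-like (973 humWT and 1858 humdG cells), neurogenic-like (331 and 634), photoreceptor precursor-like (633 and 842), amacrine and horizontal-like (217 and 368) and retinal ganglion cell-like cells (309 and 544). The retinal ganglion cell-like class rested on 6 raised markers, but *Pou4f2*, which defines these cells, was low in it at 7.63 and 7.29 CPM (the UMIs of a gene when all UMIs of the class are scaled to 1000000), while *Isl1*, which some amacrine and bipolar cells also use, stood at 116 and 333 CPM. Of the cells kept, 6573 and 10181 lay in unnamed or tied clusters, which are left out of the class values. Among them, unnamed cluster 0 (2976 and 6785 cells) had the ganglion cell marker *Sncg* among its leading genes. When the libraries were clustered without integration, an unnamed cluster of 105 and 7698 cells had *Sncg*, *Pou4f1* and *Nefl* among them. Whether ganglion cells lay in these clusters was not tested. The progenitor-like class joined cluster 4 (441 and 1006 cells) and cluster 6 (532 and 852 cells), so cluster 6 held most of it in humWT and cluster 4 in humdG.

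Each member had its highest level in the same class in both libraries. How many of all genes did so was not counted, so this describes the members only. *Atoh7*, *Neurog2* and *Olig2* were highest in neurogenic-like cells, *Neurod1* and *Neurod4* in photoreceptor precursor-like cells, *Neurod2* and *Ptf1a* in amacrine and horizontal-like cells, and *Bhlhe22* in retinal ganglion cell-like cells. The place of *Neurod2* rests on 4 and 8 UMIs. Its intervals there overlapped those of ganglion cell-like cells in both libraries, so its order is not set. The named retinal classes held 75.3% of the *Atoh7* UMIs of humWT and 74.2% of those of humdG. For *Bhlhe22* the shares were 47.6% and 49.5%, the lowest among the 7 members with more than a few UMIs.

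**Figure D1:**
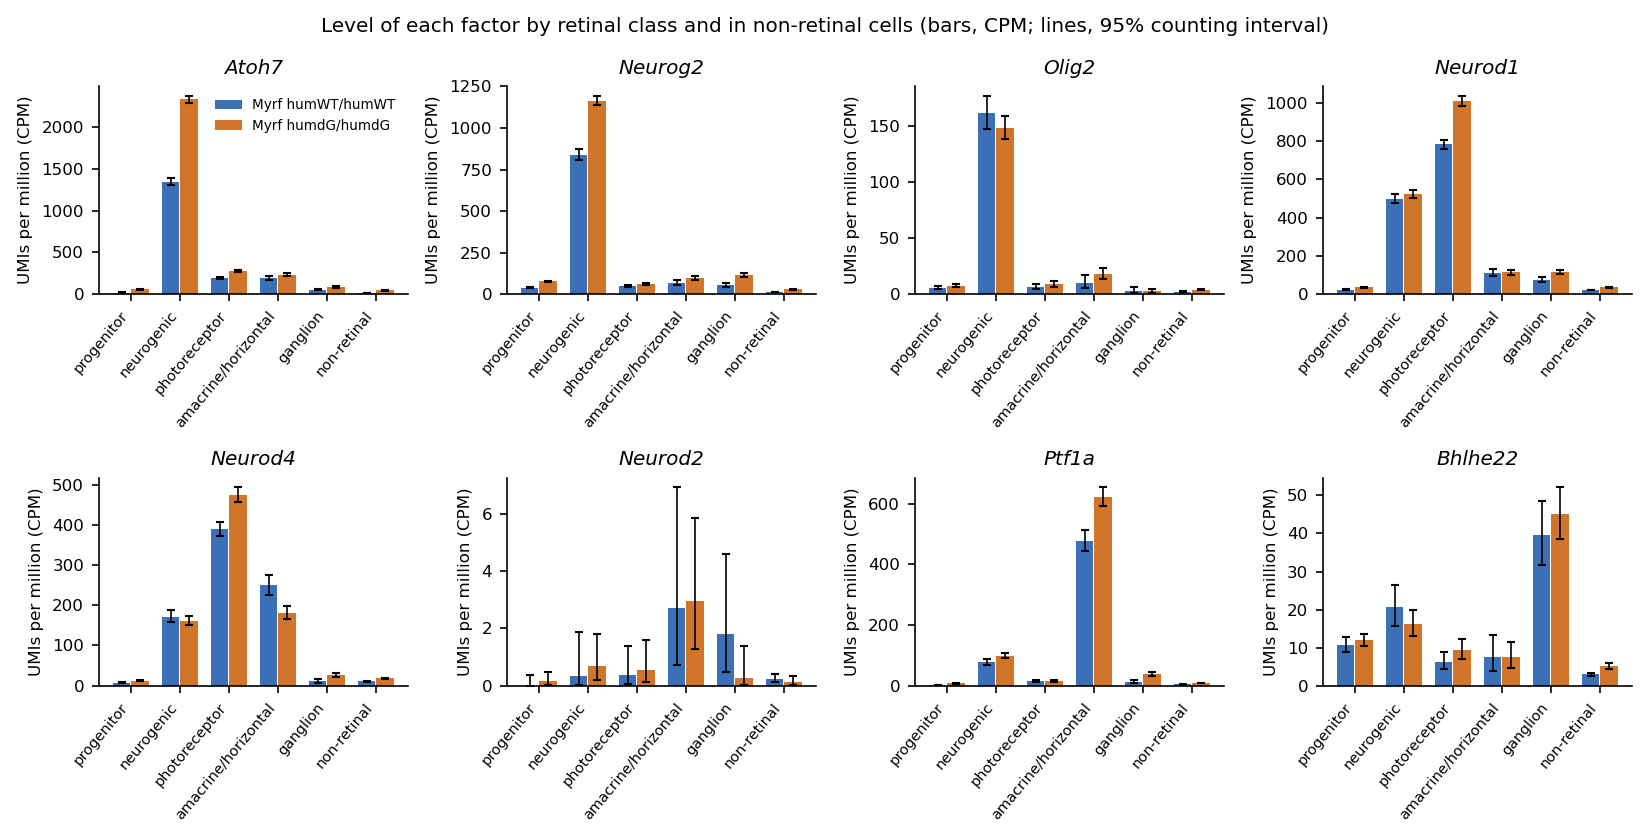
Level (CPM) of each of the 8 members, 1 panel per gene with its own axis from 0, in the 5 named retinal classes and in the non-retinal classes together. Bars are the humWT (blue) and humdG (orange) libraries and lines are 95% counting intervals. *Atoh7* stands at 1349 and 2336 CPM in neurogenic-like cells and *Ptf1a* at 477 and 623 CPM in amacrine and horizontal-like cells.

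*Atoh7* is among the factors that open neurogenesis. Its level in neurogenic-like cells was 1349 CPM in humWT (1307 to 1391) and 2336 CPM in humdG (2297 to 2376), a ratio of 1.73 (1.67 to 1.80). At least 1 UMI was found in 68.3% and 81.2% of these cells, and when each cell was thinned to 2000 UMIs the shares were 52.5% and 69.1%. A positive cell held a median of 9 UMIs in humWT and 16 in humdG, so humdG had both more positive cells and more transcripts in each. Photoreceptor precursor-like cells followed with 189 and 276 CPM and amacrine and horizontal-like cells with 194 and 232 CPM, intervals that overlap between these classes in humWT and not in humdG. In humWT these lower levels rested on few cells, since the 10 cells with most UMIs held 46.9% of the *Atoh7* UMIs of the photoreceptor precursor-like class and 80.8% of those of the amacrine and horizontal-like class. Ganglion cell-like cells had 52.9 and 87.8 CPM and progenitor-like cells, the lowest of the 5, had 19.0 and 55.4 CPM.

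*Neurog2*, a broad activator of neurogenesis, had the same leading class. It stood at 839.95 CPM in humWT neurogenic-like cells (807 to 874) and 1165 CPM in humdG (1137 to 1193), a ratio of 1.39 (1.32 to 1.45). The share of cells with a UMI was 70.1% and 72.6%, which is closer between libraries than the CPM. Outside neurogenic-like cells *Neurog2* was spread more evenly than *Atoh7*, with 38.6 and 77.0 CPM in progenitor-like, 54.3 and 114 CPM in ganglion cell-like and 49.7 and 58.2 CPM in photoreceptor precursor-like cells. Amacrine and horizontal-like cells had 67.7 and 98.9 CPM. In humWT the intervals of the ganglion cell-like, photoreceptor precursor-like and amacrine and horizontal-like classes overlapped, so their order is not set.

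*Olig2*, best known as a regulator of oligodendrocyte and motor neuron development, also marks dividing retinal cells close to differentiation. Among the named retinal classes it was high in neurogenic-like cells alone, at 162 CPM in humWT (148 to 177) and 149 CPM in humdG (139 to 159). The ratio of 0.92 (0.82 to 1.03) had an interval that includes no difference, in the same cells in which *Atoh7* and *Neurog2* were higher in humdG. No other named retinal class passed 17.8 CPM, and the other classes overlapped in their intervals in humWT.

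*Neurod1* and *Neurod4*, which act later and maintain differentiating cells, shifted to photoreceptor precursor-like cells. *Neurod1* reached 783 CPM there in humWT (759 to 807) and 1008 CPM in humdG (982 to 1035), a ratio of 1.29 (1.24 to 1.34). Neurogenic-like cells held 499 and 523 CPM, with a ratio of 1.05 (0.98 to 1.12). The other 3 classes had between 22.2 and 116 CPM. *Neurod1* was therefore high in 2 of the 5 classes, and it had a UMI in 66.5% and 78.4% of photoreceptor precursor-like and in 70.7% and 71.1% of neurogenic-like cells.

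*Neurod4* stood at 390.0 CPM in humWT photoreceptor precursor-like cells (373 to 407) and 475 CPM in humdG (457 to 494), a ratio of 1.22 (1.15 to 1.29). In amacrine and horizontal-like cells it was lower in humdG, at 249.7 CPM in humWT (225 to 277) and 181 CPM in humdG (165 to 197), a ratio of 0.72 (0.63 to 0.83). This was the only interval among the members' ratios that lay below 1. The share of amacrine and horizontal-like cells with a *Neurod4* UMI went the other way, at 36.4% and 42.1%, and was 21.5% and 22.6% after thinning. The 10 cells with most *Neurod4* UMIs held 42.6% of its UMIs in this class in humWT and 22.8% in humdG, and no order is read from the shares. In neurogenic-like cells *Neurod4* was at 172 and 162 CPM (ratio 0.94, 0.84 to 1.05), and progenitor-like and ganglion cell-like cells had 7.64 to 25.7 CPM.

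*Ptf1a*, which directs cells to amacrine and horizontal fates, stood highest in amacrine and horizontal-like cells, with 477 CPM in humWT (443 to 514) and 623 CPM in humdG (594 to 654), a ratio of 1.31 (1.20 to 1.43). At least 3 UMIs were found in 34.1% of the humWT and 49.7% of the humdG cells of that class. Neurogenic-like cells came next with 77.0 and 98.2 CPM (ratio 1.28, 1.09 to 1.49), although only 12.4% and 17.4% of them had a UMI. In humWT 10 neurogenic-like cells held 65.4% of the *Ptf1a* UMIs of their class. All other retinal classes were at 37.7 CPM or less.

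*Bhlhe22* was found at low levels and was the most evenly spread. It had 39.5 CPM in humWT ganglion cell-like cells (31.7 to 48.6) and 45.02 CPM in humdG (38.7 to 52.1), a ratio of 1.14 with a log2 interval of -0.19 to 0.57. A UMI was found in 14.9% of these cells in each library. Neurogenic-like cells followed with 20.6 and 16.1 CPM. The level in amacrine and horizontal-like cells was 7.44 and 7.43 CPM, from 11 and 20 UMIs. Outside the retina, Schwann and neural crest glia-like cells had a *Bhlhe22* UMI in 18.8% of 48 and 22.0% of 41 cells, but these cells were deep, with medians of 16666 and 14765 UMIs. Thinned to 2000 UMIs per cell the shares were 2.32% and 3.59%, below the 6.06% and 6.40% of ganglion cell-like cells.

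*Neurod2*, a factor of maturing neurons, was close to the limit of detection, with 44 UMIs in all humWT cells kept and 54 in all humdG cells kept. Amacrine and horizontal-like cells held 4 and 8 of these UMIs. In the progenitor-like class 0 of 973 humWT cells had a UMI, which by a limit of 3 counts allows a share of cells with a UMI of up to 0.308% and says nothing of cells that express the gene below detection. No class reached the 20 UMIs needed for a ratio, so *Neurod2* is left out of the comparison between genotypes.

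Free RNA, released by broken cells and captured with any barcode, can bear on all of these shares. It was not measured from empty barcodes, and what is called free RNA below is the members' UMIs in non-retinal cells. Whether these UMIs came from free RNA, from doublets or from wrongly classed cells was not tested. In the named non-retinal classes, muscle, cartilage, blood, vessel, epithelial and pigment cells among them, *Atoh7* had a UMI in 7.36% of 7131 humWT cells and 23.4% of 3746 humdG cells. The median depths were 3541 and 2686.5 UMIs, so the higher share stood in the shallower library. The *Neurog2* shares were 6.35% and 15.9%, those of *Neurod1* 11.7% and 20.1%, those of *Neurod4* 6.56% and 11.5%, and those of *Ptf1a* 2.33% and 4.97%. *Olig2* had 1.25% and 2.59%, *Bhlhe22* 2.05% and 3.52% and *Neurod2* 0.154% and 0.107%. The background was thus higher in humdG for each member except *Neurod2*. How many of all genes were higher in humdG in these cells was not computed, so this is not read as particular to the members.

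The background of *Atoh7* was also read as UMIs per cell. Over 16 non-retinal humWT clusters, whose median depths ran from 2724 to 24096.5 UMIs, the *Atoh7* UMIs per cell ran from 0.0471 to 0.314. Over 14 such humdG clusters they ran from 0.213 to 1.24. Progenitor-like cells held 0.20 and 0.57 *Atoh7* UMIs per cell, and non-retinal cells 0.114 and 0.349. The non-retinal number per cell would therefore account for 56.8% of the *Atoh7* UMIs of humWT progenitor-like cells and 61.5% of those of humdG, but for 0.95% and 1.66% of those of neurogenic-like cells. For *Neurod4* in progenitor-like cells these shares were 98.8% and 114%, and for *Ptf1a* 118% and 78.9%, so these members were not told apart from background there. Nor was *Atoh7*, whose UMIs per cell in progenitor-like cells lay inside the non-retinal range of each library.

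**Figure D2:**
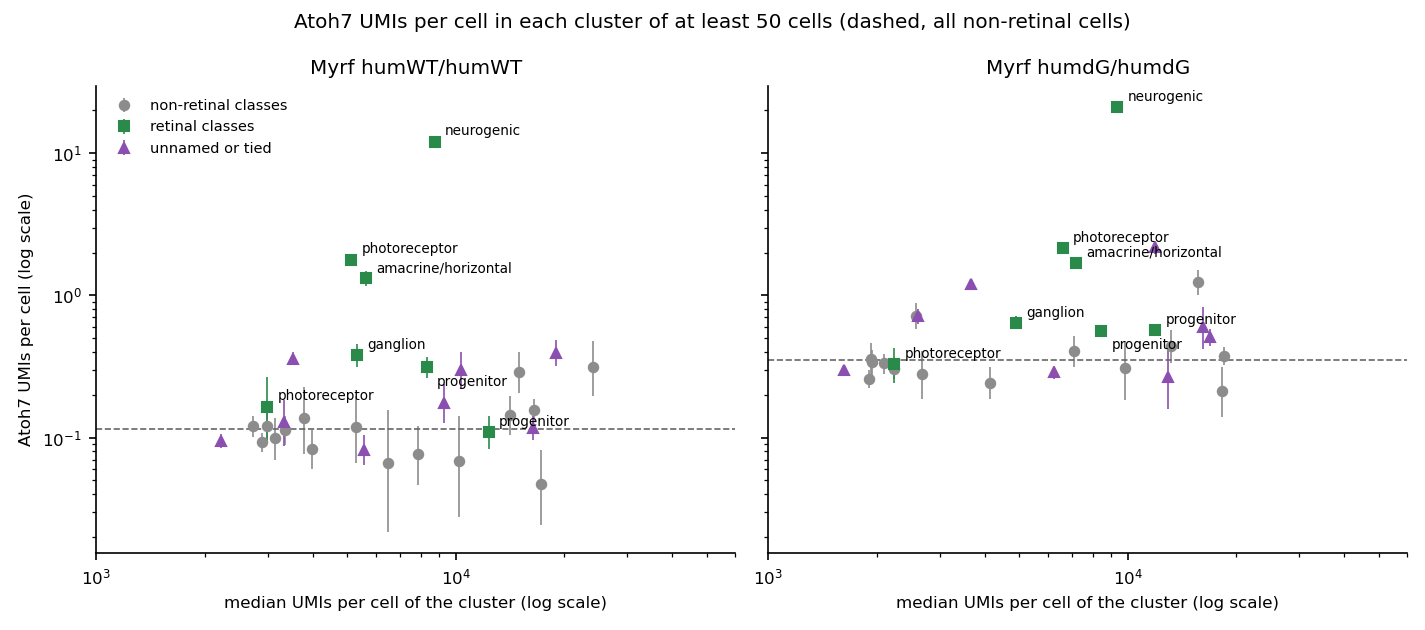
*Atoh7* UMIs per cell (vertical, log scale) against the median UMIs per cell (horizontal, log scale) of each cluster with at least 50 cells, humWT at left and humdG at right. Green squares are named retinal clusters, grey circles non-retinal ones and purple triangles unnamed or tied ones, with 95% counting intervals, and the dashed line is the mean of all non-retinal cells (0.114 and 0.349). The neurogenic-like cluster stands at 12.1 and 21.0 UMIs per cell, while the progenitor-like clusters lie among the non-retinal ones.

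Asking for at least 3 UMIs set most of the background aside. At that limit 0.477% and 1.41% of the non-retinal cells were *Atoh7* positive, against 51.7% and 64.5% of the neurogenic-like cells. Of the retinal cells with 3 or more *Atoh7* UMIs, 268 in humWT and 674 in humdG, 63.8% and 60.7% were neurogenic-like and 26.1% and 23.7% photoreceptor precursor-like. *Neurog2* cells at this limit, 244 and 565, were 66.4% and 62.1% neurogenic-like and 17.6% and 22.1% progenitor-like. *Olig2* cells were the purest, with 87.1% of 85 and 89.1% of 147 in the neurogenic-like class. *Neurod1* cells were 55.8% and 50.8% photoreceptor precursor-like, and *Neurod4* cells 64.0% and 63.0%. *Ptf1a* cells, 103 and 262, were 71.8% and 69.8% amacrine and horizontal-like and 21.4% and 19.8% neurogenic-like. The class that held most cells of each of these 6 members was the same in both libraries, which was not counted over all genes. Smaller shares differed more, with 2.99% of the humWT and 8.46% of the humdG *Atoh7* cells in the progenitor-like class.

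The libraries were then compared class by class. Members with at least 20 UMIs over both libraries were used, and a value was called when the CPM differed at least 1.5 times in either direction. In neurogenic-like cells 1 of 7 members, *Atoh7*, was past this fold toward humdG and 0 of 7 toward humWT, where 5.33% and 9.98% of 12730 genes were past it in these directions. The median log2 ratio of the members was 0.07, against -0.04 over all genes. The log2 ratio of *Atoh7* was 0.79 (0.74 to 0.84), above the 90th percentile of 0.38 over all genes of the class, and that of *Neurog2* was 0.47 (0.41 to 0.54). Subtracting the free RNA left 0.78 and 0.46. Over all genes of the class 7.5% had an interval above 0 and 12.5% below, against 3 and 0 of the 7 members. *Neurod1* (0.07, -0.02 to 0.16), *Neurod4* (-0.09, -0.24 to 0.07) and *Olig2* (-0.12, -0.29 to 0.04) had intervals across 0, so in these cells the members divided into a pair that was higher in humdG, *Ptf1a* with 0.35 (0.13 to 0.58), and 4 whose intervals included no difference.

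In photoreceptor precursor-like cells 1 of 7 members, *Bhlhe22* with 32 and 52 UMIs, was past 1.5-fold toward humdG, where 6.29% of 13583 genes were, and 0 toward humWT, where 10.8% were. Its log2 interval of -0.07 to 1.28 included 0, and it turned to -0.06 once free RNA was subtracted. The log2 ratios of *Neurod1* (0.37, 0.31 to 0.42), *Neurod4* (0.28, 0.20 to 0.37) and *Atoh7* (0.54, 0.43 to 0.66) had intervals above 0 but under this fold. Over all genes of the class, 13.8% had an interval above 0 and 13.4% below, against 3 and 0 of the 7 members. Once free RNA was subtracted *Atoh7* stood at 0.35, *Neurod1* at 0.34 and *Neurod4* at 0.25. With cells assigned by a per-cell marker gate in place of clusters, *Neurod4* turned to -0.09, *Neurod1* came to 0.03 and *Atoh7* to 1.17.

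For amacrine and horizontal-like cells the count was 1 of 7 toward humdG, *Olig2* with 15 and 48 UMIs and an interval of -0.05 to 1.76, beside 8.79% of 11362 genes. It was 0 of 7 toward humWT, beside 11.3%. *Ptf1a* (0.39, 0.26 to 0.51), *Neurog2* (0.55, 0.21 to 0.89) and *Atoh7* (0.26, 0.06 to 0.47) had intervals above 0 and *Neurod4* (-0.47, -0.67 to -0.27) below. Over all genes of the class 10.6% had an interval above 0 and 10.6% below, against 3 and 1 of the 7 members. After the free RNA was subtracted *Ptf1a* kept 0.38 and *Neurod4* stood at -0.56, while *Atoh7* came to 0.06.

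Progenitor-like cells had 5 of 7 members past 1.5-fold toward humdG, where 5.28% of 15013 genes were, and 0 toward humWT, where 8.93% were. The log2 ratio was 1.55 for *Atoh7* (1.33 to 1.78), 1.00 for *Neurog2* (0.84 to 1.16), 1.75 for *Ptf1a* (1.13 to 2.44), 0.68 for *Neurod1* (0.46 to 0.90) and 0.67 for *Neurod4* (0.30 to 1.06). The members' median of 0.68 fell to 0.11 when free RNA was subtracted, with 1.38 left for *Atoh7*, 0.85 for *Neurog2* and 0.11 for *Neurod1*, and with no value left for *Ptf1a* and *Neurod4*. The subtraction used the mean over all non-retinal cells. The *Atoh7* UMIs per cell of the class lay inside the range of the non-retinal clusters in both libraries, so the value left for *Atoh7* is not told apart from background. Subtracting the CPM of red blood cell-like cells instead turned the median to -0.22, over the 3 members left with a value. Without integration of the libraries *Atoh7* came to 0.22 and *Neurog2* to 0.36. There the class held 351 humWT and 1970 humdG cells, against 973 and 1858 with integration. Other clusters with raised progenitor markers stayed unnamed, such as cluster 7 of that clustering with 1095 humWT and 203 humdG cells. With integration, cluster 2 (876 humWT and 1243 humdG cells) also stayed unnamed, with 8 progenitor markers raised. Neither clustering therefore put all cells with raised progenitor markers into the class. The values without integration therefore do not describe the same set of cells. Over all genes of the class 10.1% had an interval above 0 and 19.2% below, against 5 and 0 of the 7 members. The ratios also differed between the clusters of the class, with *Atoh7* at 36.3 and 65.6 CPM in cluster 4 and at 8.93 and 47.0 CPM in cluster 6.

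The retinal ganglion cell-like class had 5 of 6 members past 1.5-fold toward humdG, where 8.24% of 12745 genes were, and 0 toward humWT, where 14.6% were. *Ptf1a* (1.49, 0.91 to 2.10), *Neurod4* (1.25, 0.60 to 1.96) and *Neurog2* (1.07, 0.77 to 1.37) had the largest log2 ratios, from levels of 10.8 to 54.3 CPM in humWT, and without integration *Ptf1a* came to 0.29. Over all genes of the class 14.5% had an interval above 0 and 16.6% below, against 5 and 0 of the 6 members. *Bhlhe22*, which had its own highest level in this class, had 0.19. Because *Pou4f2* was low in the class, this does not assign *Bhlhe22* to ganglion cells. Free RNA in the non-retinal number per cell made up 29.97% of the *Atoh7* UMIs of this class in humWT and 54.5% in humdG, and 103% and 75.7% of its *Neurod4* UMIs. With it subtracted *Atoh7* stood at 0.11, *Neurog2* at 0.97 and *Ptf1a* at 1.63. The direction of *Atoh7* turned to -0.13 with no doublets removed, and that of *Neurod4* to -0.43 when the libraries were clustered without integration. Without integration the class held 472 and 947 cells, against 309 and 544, and no amacrine and horizontal-like class formed. Leading genes of the ganglion cell-like class then included *Ptf1a*, *St18* and *Myo16*, which with integration led the amacrine and horizontal-like class. The values without integration therefore do not describe the same set of cells.

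**Figure D3:**
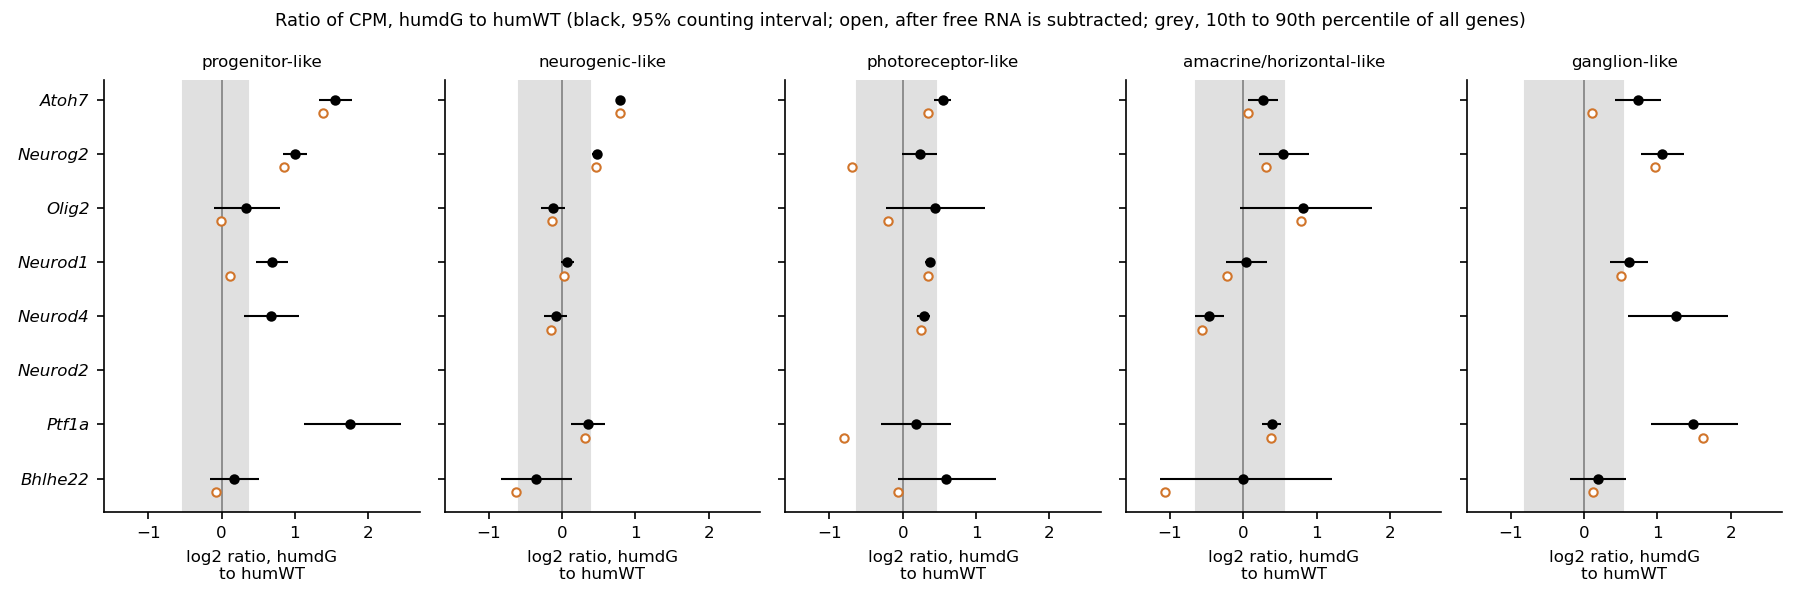
Log2 ratio of CPM, humdG to humWT (horizontal), of each member (vertical) in the 5 named retinal classes. Black points carry 95% counting intervals, open orange points are the ratios after the non-retinal UMIs per cell are subtracted, and the grey band runs from the 10th to the 90th percentile of all genes tested in the class. In neurogenic-like cells *Atoh7* (0.79) lies right of the band and is hardly moved by the subtraction (0.78), while in progenitor-like cells *Neurod1* moves from 0.68 to 0.11.

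The partners and inhibitors of the members were read in the same neurogenic-like cells. Free RNA was not subtracted from the ratios of these genes or of the other listed genes below. Of the E proteins, which all proneural factors need as partners, *Tcf4* was lower in humdG (605 and 480 CPM, log2 ratio -0.33, -0.42 to -0.25) and so was *Tcf12* (301 and 256 CPM, -0.23, -0.35 to -0.11), while *Tcf3* had 67.5 and 68.6 CPM. *Tcf4* and *Tcf12* lay below 0 with their whole intervals in each of the 5 classes. Of all genes tested, 10.6% in amacrine and horizontal-like cells to 19.2% in progenitor-like cells did so, with the other classes between. Of the 4 Id genes, *Id1* (97.6 and 151 CPM, 0.63, 0.44 to 0.83) and *Id3* (58.8 and 81.4 CPM, 0.47, 0.22 to 0.73) were higher in humdG and the intervals of *Id2* and *Id4* included 0. Among the repressors, *Hes5* (559 and 843 CPM, 0.59, 0.51 to 0.68) and *Hes1* (46.3 and 75.8 CPM, 0.71, 0.43 to 1.00) were higher in humdG.

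Genes that proneural factors switch on early were read in the same cells. Most of them were also markers that named the neurogenic-like class, and the photoreceptor regulators were markers of the photoreceptor precursor-like class. Their ratios within these classes are therefore not independent of how the classes were named, and cannot show whether these genes followed the members. In neurogenic-like cells 7.5% of all genes had intervals above 0 and 12.5% below. Of 10 Notch ligands and early targets in neurogenic-like cells, 3 had intervals above 0, *Gadd45a* (192 and 378 CPM, 0.98, 0.85 to 1.12), *Btg2* (503 and 632 CPM, 0.33, 0.24 to 0.42) and *Dll4* (116 and 142 CPM, 0.29, 0.11 to 0.48), and none below. *Dll1*, *Dll3*, *Hes6* and *Insm1* had log2 ratios between 0.00 and 0.02. Of the 6 ganglion cell regulators 4 had intervals above 0, led in UMIs by *Sox11* (437 and 522 CPM, 0.26, 0.16 to 0.35), with *Isl1* at 3 and 60 UMIs. Of 5 photoreceptor regulators 3 lay below 0, *Otx2* (-0.15), *Crx* (-0.41) and *Prdm1* (-0.31), and *Thrb* above (0.53). In photoreceptor precursor-like cells, with 13.8% of all genes above 0, 5 of 6 lay above 0, as *Neurod1* and *Neurod4* did, with *Otx2* at 673 and 832 CPM, and *Nrl*, the rod determinant, lay below (100.3 and 66.1 CPM, -0.60, -0.80 to -0.40).

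The other lists were read in neurogenic-like cells too, where most of *Atoh7* lay, and their counts stand beside the 7.5% and 12.5% of all genes of the class with intervals above and below 0. Of 6 neuron differentiation genes 5 had intervals above 0, of 7 progenitor factors 3 did, and of 6 G2 and M phase genes 3 did, with none below in each. Free RNA was not subtracted from these ratios, as it was for the members. All 6 S phase genes had intervals that included 0, as did the 2 of 3 bipolar regulators with enough UMIs. Of 7 amacrine and horizontal regulators *Onecut1* lay above 0 (68.2 and 149.5 CPM, 1.13) and *Prox1* below (66.5 and 41.7 CPM, -0.68). *Pdgfra*, an oligodendrocyte lineage gene that other cells of the eye also express, lay below 0 (25.0 and 6.30 CPM, -1.99). In amacrine and horizontal-like cells, where *Ptf1a* was higher in humdG, its partner *Prdm13* stood at 278 CPM in each library.

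Whether members were found in the same cells was read over the named retinal classes. The number of cells with both members of a pair was set against the product of their shares, taken within 10 classes of UMI depth so that deep cells do not make pairs by depth alone. With 1 UMI counted as positive, 43.5% of the humWT *Atoh7* cells and 46.6% of the humdG *Atoh7* cells also had *Neurog2*, 1.68 and 1.32 times the product. The pair shared a UMI in 48 humWT and 181 humdG non-retinal cells too, so the limit of 3 UMIs was used for what follows.

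At 3 UMIs *Neurog2* and *Olig2* were the tightest pair. Of the *Olig2* cells 90.6% in humWT (82.3% to 95.9%) and 95.9% in humdG (91.3% to 98.5%) also held *Neurog2*, 77 and 141 cells, which is 5.82 and 4.40 times the product. The reverse share was 31.6% and 25.0%, so *Olig2* cells were nearly contained in the larger *Neurog2* population. *Neurod1* and *Neurod4* were together in 218 and 373 cells, 3.09 and 3.17 times the product and 77.0% and 77.6% of the *Neurod4* cells. *Atoh7* was found with *Neurog2* in 127 and 313 cells (3.35 and 2.71 times), with *Neurod1* in 187 and 414 (2.74 and 2.48 times) and with *Olig2* in 58 and 122 (3.90 and 3.67 times).

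Other pairs lay under the product. *Neurod1* and *Ptf1a* shared 14 and 26 cells, 0.55 and 0.40 times the product, although *Neurod4* and *Ptf1a* shared 43 and 74, 2.64 and 1.96 times. *Olig2* and *Ptf1a* shared 1 and 3 cells. *Neurog2* and *Neurod4* shared 28 and 65 cells, 0.78 and 0.89 times.

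**Figure D4:**
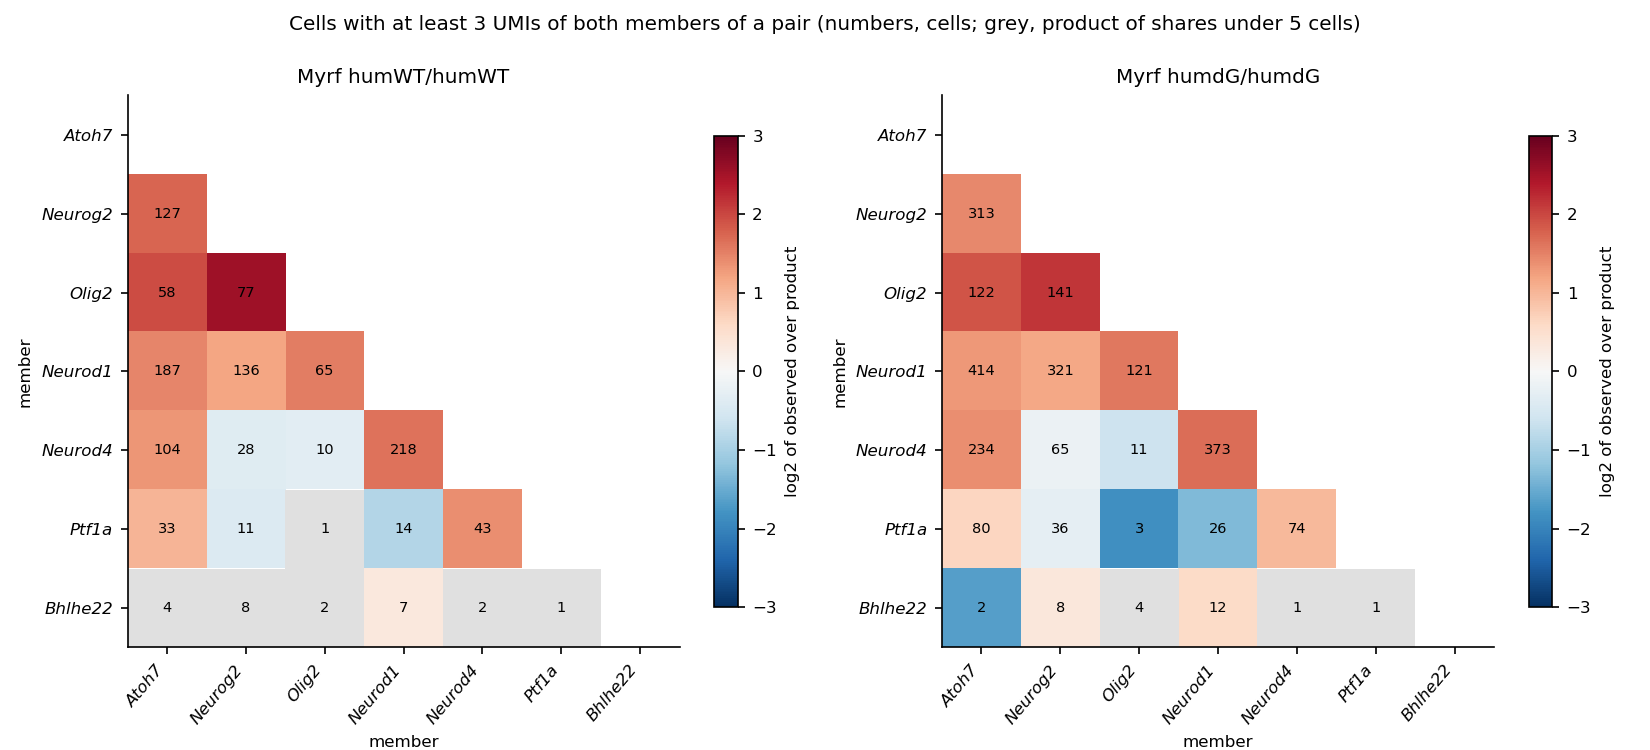
Number of cells of the named retinal classes with at least 3 UMIs of both members of a pair, humWT at left and humdG at right. Colour is the log2 of the observed number over the product of shares within depth classes, with red above and blue below it and grey where the product is under 5 cells. *Neurog2* with *Olig2* (77 and 141 cells) is the darkest red in both libraries and *Neurod1* with *Ptf1a* (14 and 26 cells) is blue in both.

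A class that is high in several members makes pairs of all of them, so the pairs were read again within 1 class. In neurogenic-like cells alone *Atoh7* and *Neurog2* shared 110 and 278 cells, 1.00 and 1.02 times the product, so they were found together no more than their shares give. *Neurog2* and *Olig2* kept 1.28 and 1.20 times and *Neurod1* and *Neurod4* 1.44 and 1.37 times. Under the product inside the class were *Neurog2* with *Neurod4* (15 and 44 cells, 0.49 and 0.68 times), *Neurod1* with *Ptf1a* (4 and 4 cells, 0.30 and 0.14 times) and *Neurog2* with *Ptf1a* (2 and 9 cells, 0.15 and 0.27 times). *Olig2* and *Ptf1a* shared 0 of 331 and 0 of 634 cells. *Atoh7* was present in 20 of 22 and 50 of 52 *Ptf1a* cells of the class and in 38 of 56 and 80 of 104 *Neurod4* cells. Its share of all cells of the class was 171 of 331 and 409 of 634. Of *Atoh7*, *Neurog2*, *Olig2* and *Neurod1*, 12.7% of humWT and 15.6% of humdG neurogenic-like cells held all 4, and 25.4% and 20.8% held none, at 3 UMIs.

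The cells positive for each member differed in cell cycle and differentiation genes, in the same order in both libraries at the top. Summed over 6 G2 and M phase genes, *Olig2* cells stood at 3763 CPM in humWT and 3896 CPM in humdG, *Neurog2* cells at 2594 and 2559 CPM and *Atoh7* cells at 2215 and 2197 CPM. *Neurod1* cells had 1629 and 1577 CPM, *Neurod4* cells 1042 and 531 CPM and *Ptf1a* cells 769 and 409 CPM. The order ran from *Olig2* cells, with the most G2 and M phase transcripts, to *Neurod4* and *Ptf1a* cells with few. The positive cells were picked by a fixed UMI limit, which favours deep cells, and the sets were not matched for depth. How far depth shaped this order, or the sums of the other lists below, was not tested. The order is therefore not read as a difference in cell cycle state.

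Neuron differentiation genes (*Stmn2*, *Tubb3*, *Gap43*, *Elavl3*, *Elavl4* and *Dcx*) ran the other way, from 251 and 333 CPM in *Olig2* cells to 2059 and 2603 CPM in *Ptf1a* cells, with the few *Bhlhe22* cells (22 and 34) at 2145 and 1468 CPM. *Neurod4* cells were closer to the *Atoh7* cells here, with 676 and 1104 CPM against 726 and 973 CPM. Notch ligands and early targets were highest in *Olig2* cells, at 3606 and 4456 CPM, against 977 and 1104 CPM in retinal cells without *Olig2* at this limit. Photoreceptor regulators were highest in *Neurod4* cells (1612 and 1795 CPM) and *Neurod1* cells (1508 and 1471 CPM), and lowest in *Ptf1a* cells (426 and 188 CPM). *Ptf1a* cells instead carried the amacrine and horizontal regulators, at 855 and 938 CPM, with *Prdm13*, which acts with *Ptf1a* in amacrine cells, at 262 and 244 CPM against 9.37 and 8.04 CPM in cells without. *Foxn4*, which acts ahead of *Ptf1a*, was low in *Ptf1a* cells (11.8 and 10.5 CPM) and high in *Olig2* cells (171 and 222 CPM). All the photoreceptor regulators were also markers that named the classes. So were most of the Notch ligands and early targets and most of the amacrine and horizontal regulators. The sums of these lists are therefore not independent of the classes in which the positive cells lay.

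**Figure D5:**
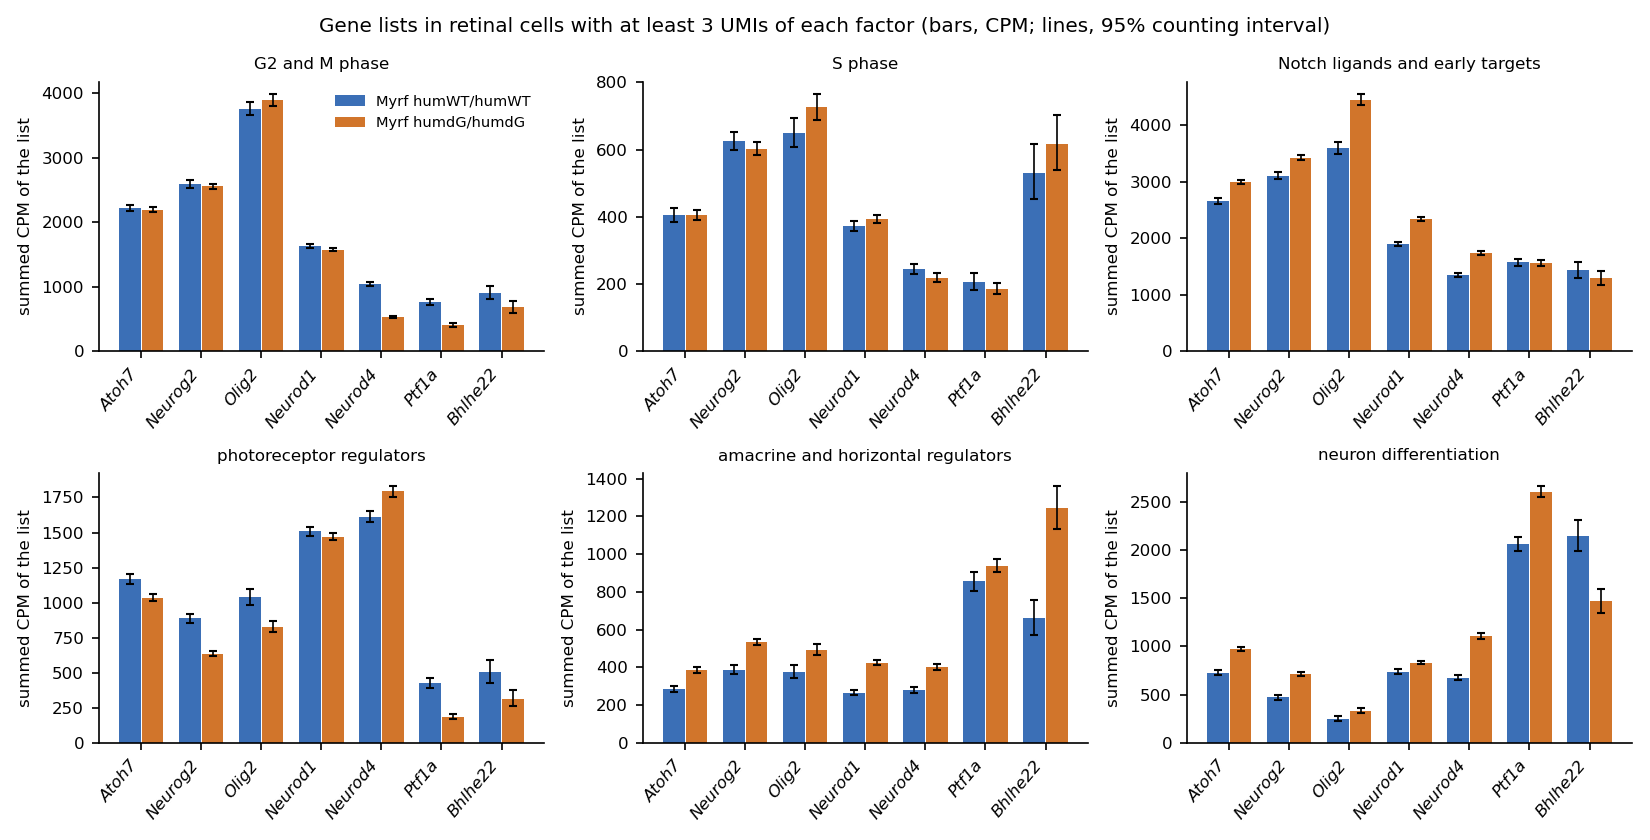
Summed CPM of 6 gene lists in the cells of the named retinal classes with at least 3 UMIs of each member, humWT in blue and humdG in orange, with 95% counting intervals. *Neurod2* is left out, with 1 and 0 such cells. Some genes of the lists are also markers that named the classes, and the sets of cells were not matched for UMI depth. G2 and M phase genes are highest in *Olig2* cells (3763 and 3896 CPM) and neuron differentiation genes are high in *Ptf1a* cells (2059 and 2603 CPM).

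The genes most like each member were found over 60 profiles, each the cells of 1 cluster in 1 library with at least 50 cells, among 12468 genes, by Pearson's r of log2(CPM + 10). Profiles of a library share its preparation and free RNA, so the values are a description. *Atoh7* was most like *Neurog2* (r = 0.917), *Insm1* (0.893) and *Dll3* (0.863), and *Neurog2* was most like *Atoh7*, *Olig2* (0.911) and *Insm1* (0.883). *Olig2* came closest to *Neurog2*, *Sstr2* (0.885) and *Gm14207* (0.878). *Neurod1* was most like *Amer2* (0.928), *Neurod4* (0.923) and *Igsf21* (0.8997), and *Neurod4* most like *Neurod1*, *Cplx3* (0.916) and *Amer2* (0.899). *Ptf1a* followed *Prdm13* (0.903), *Tubb3* (0.902) and *Krt73* (0.893), and *Bhlhe22* followed *Gng3* (0.856), *Rnf227* (0.838) and *Tagln3* (0.821). For *Neurod2*, with 98 UMIs in all, the nearest genes were *Calb2* (0.716), *Prdm13* (0.706) and *Oprm1* (0.679), which at this depth is no finding. Several genes in these lists, *Insm1*, *Dll3*, *Sstr2* and *Prdm13*, were also markers that named the classes.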

How the data were processed

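Single cells of E17.5 eye cups were counted by 10x 3′ sequencing in 2 libraries, 1 per genotype. The authors deposited unnormalized counts (UMIs of each gene in each barcode), made with Cell Ranger 7.1.0 on mm10 according to the submitters' processing notes, which also name Seurat 4.1.1. Whether introns were counted is not given in the sources used here.

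A cell was kept if it had over 500 genes and a mitochondrial share under 15%. Scrublet (scanpy 1.11.5) called almost no doublets, so cells in the top 5% of its scores were dropped. Libraries were integrated by canonical correlation in Seurat 5.3.0 (R 4.3.3), with 2000 variable genes that held none of the 8 members, 20 dimensions and a resolution of 1.0. A cluster was named where at least 3 markers of a class were raised 2-fold and found in 10% of its cells, with 1 among its 20 leading genes, which named 24 of 32 clusters.

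UMIs were summed per class and library and scaled to 1000000 UMIs per class (CPM), with exact Poisson intervals, exact Clopper-Pearson intervals for shares and conditional binomial intervals for ratios, all at 95% (scipy 1.17.1). The computations were tested on simulated data. Alternatives were clusterings at a resolution of 0.5, without integration or with members allowed, a per-cell marker gate, other doublet, mitochondrial and depth limits, other scalings, subtraction of red blood cell CPM, and positivity at 2 UMIs. Subtraction of the non-retinal UMIs per cell, leaving out shared barcodes and positivity at 3 UMIs were chosen after seeing the data.

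The members, the 84 genes of the 14 lists and the markers were chosen with earlier results of these data known. Genes named were, by rule, the members, the listed genes with most UMIs in the named retinal classes, and the 3 genes most like each member among genes with at least 1000 UMIs. Other listed genes, such as *Isl1*, *Id3*, *Nrl* and *Pdgfra*, are named because of where their intervals lay, after their values were seen. Results of the lists of other neural bHLH factors and of summed oligodendrocyte lineage genes are not reported here.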

Additional observations from a re-analysis of the deposited data

Results flagged for a closer look

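*Neurod4* had log2 ratios on opposite sides of 0 between classes, but not all ratios above 0 kept their sign under the alternatives. The ratio in photoreceptor precursor-like cells turned to -0.09 under the per-cell marker gate. That in retinal ganglion cell-like cells turned to -0.43 without integration of the libraries. Its log2 ratio of humdG to humWT was -0.47 in amacrine and horizontal-like cells, against 0.67 in progenitor-like, 0.28 in photoreceptor precursor-like and 1.25 in retinal ganglion cell-like cells. The intervals of these ratios lay on opposite sides of 0, but each genotype is 1 library, so the difference between the classes was not tested. In the progenitor-like class the non-retinal number of UMIs per cell was 98.8% and 114% of the *Neurod4* UMIs of humWT and humdG, and in the ganglion cell-like class it was 103% and 75.7%.

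Cluster 21, which the class comparisons did not use because no marker of a class was among its 20 leading genes, held members above the non-retinal level in humdG. In this cluster 6 photoreceptor precursor markers were raised. Of its 188 humdG cells, with a median of 11915.5 UMIs, 38.8% had at least 3 *Neurod1* UMIs, 26.1% had 3 of *Atoh7*, 22.9% of *Neurog2*, 21.8% of *Neurod4* and 9.57% of *Ptf1a*, and 3.72% had 3 of *Olig2* and as many had 3 of *Bhlhe22*. The non-retinal cells, with a median of 2686.5 UMIs, had 1.12% for *Neurod1*, 1.41% for *Atoh7*, 0.694% for *Neurog2*, 0.374% for *Neurod4*, 0.240% for *Ptf1a*, 0.160% for *Olig2* and 0.0534% for *Bhlhe22*. On the CPM scale the gap was smaller, with *Neurod1* at 127 CPM against 35.3 and *Atoh7* at 69.1 CPM against 44.6. With each cell thinned to 2000 UMIs, the shares of cells with any UMI were 22.2% in cluster 21 against 10.2% in non-retinal cells for *Neurod1*, 12.8% against 7.85% for *Neurog2*, 11.3% against 5.39% for *Neurod4* and 12.4% against 12.5% for *Atoh7*. They were 3.60% against 2.58% for *Ptf1a*, 2.23% against 1.58% for *Bhlhe22* and 1.16% against 1.31% for *Olig2*, so at equal depth the cluster did not stand above the non-retinal cells for *Atoh7* and *Olig2*.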

How the results depend on the processing

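No paired analysis was possible because each genotype is 1 library. Of the 34 ratios of members in classes, 20 had an interval off 0, and 17 of these kept their sign under each alternative that gave them a value. A value was missing where the class did not form, where UMIs were under 20 or where a subtraction left none. In progenitor-like cells *Atoh7* and *Neurod1* had values under 12 of the 13 alternatives, and *Neurod4* and *Ptf1a* under 11. The amacrine and horizontal-like class did not form at a resolution of 0.5, without integration or with members allowed among the clustering genes, and the ganglion cell-like class not at 0.5 or with members allowed, so *Ptf1a*, *Bhlhe22* and *Neurod2* had another highest class at 0.5 and with members allowed (the highest class was not read without integration). The members' median log2 ratio in progenitor-like cells, 0.68, became -0.22 with red blood cell CPM subtracted and 0.11 with non-retinal UMIs subtracted. In photoreceptor precursor-like cells, from 0.37, these gave 0.010 and -0.064, and the marker gate gave 0.92. The gate turned the neurogenic-like median of 0.07 to -0.12. The ganglion cell-like median, 0.90, was 0.38 without integration, 0.54 with no doublet removal and 0.50 with non-retinal UMIs subtracted. The ratio of *Bhlhe22* in photoreceptor precursor-like cells turned to -2.93 and -0.064 under the subtractions. That of *Atoh7* in ganglion cell-like cells turned to -0.20 (gate), -0.13 (no doublet removal) and -0.044 (red blood cell CPM), and that of *Neurod4* there to -0.43 (no integration). That of *Neurod4* in photoreceptor precursor-like cells was -0.09 under the gate, and *Neurod1* there 0.03. Without integration *Atoh7* and *Neurog2* in progenitor-like cells came to 0.22 and 0.36 and *Ptf1a* in ganglion cell-like cells to 0.29. Both classes held other sets of cells there, with 351 and 1970 progenitor-like and 472 and 947 ganglion cell-like cells. The ratio of *Atoh7* in neurogenic-like cells ran from 0.47 (gate) to 0.84. *Atoh7* cells with *Neurog2*, 43.5% and 46.6%, were 36.3% and 38.0% after thinning, 74.8% and 77.1% in neurogenic-like cells only, and 43.6% in humdG at 2 UMIs. Pairs over 1.5 times the product, 10 in humWT and 5 in humdG, were 1 and 0 in neurogenic-like cells only, and in humdG 9 after thinning, 12 at 2 UMIs and 10 at 3 UMIs. *Atoh7* with *Olig2* in humWT came to 0.987 in neurogenic-like cells only, and *Neurod4* with *Neurod2* in humdG, which rests on few UMIs, to 0.9503 after thinning and to 0 in neurogenic-like cells only and at 2 UMIs. The causes were not tested beyond what each alternative changes. With 1 library a genotype, differences between embryos and preparations cannot be told apart from genotype.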

Other observations

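Members were also found in clusters left without a class. In cluster 17, whose markers tied between the amacrine and horizontal and the ganglion cell classes, *Atoh7* stood at 34.6 CPM in 232 humWT cells and 228 CPM in 357 humdG cells, and 28.3% of the humdG cells had a UMI. Their median depth was 3335.5 and 2602 UMIs. The humdG non-retinal cells, with a median of 2686.5 UMIs, had an *Atoh7* UMI in 23.4% of cells. Their *Atoh7* level was 44.6 CPM, and 144 CPM in the highest of their clusters, so the share was near the background and the CPM above it. *Ptf1a* had at least 3 UMIs in 3.88% of the humWT cells of this cluster. In unnamed cluster 3 of humWT, 3.80% of 921 cells had at least 3 *Atoh7* UMIs and 2.93% had 3 *Neurog2* UMIs. *Neurod1* reached 9.38% at this limit in the 160 humWT cells of cluster 21.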
